A study of Homo sapiens with 4 samples.

Results

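Binding of MEIS1 and MEIS2 was examined at 10 genes of the repulsive guidance molecule (RGM), neogenin and bone morphogenetic protein (BMP) pathway: RGMA, RGMB, NEO1, BMP2, BMP4, BMP7, BMPR1A, BMPR1B, NOG and GREM1. They are 10 of 20098 protein-coding genes on chromosomes 1 to 22 and X. The list was built around RGMA, which was selected on the strength of a site, since it has the nearest canonical transcription start site (TSS) to one of the 10 strongest MEIS sites, and the others were added for their place in the pathway. All 10 genes were chosen with earlier results of these data known, so they are not an unselected sample of the pathway. A gene was given every site whose summit, the point of highest signal, lay in the gene body extended by 500 kb on each side, and 32 of 5169 reproducible sites were assigned in this way. The site near RGMA stood at rank 10 with a −log10 p of 1318, and rank 11, with 1301, had EPHA3 as its nearest gene, so the strength of the RGMA site is a description of how it was chosen and not a finding.

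The data are chromatin immunoprecipitation with sequencing (ChIP-seq) from untreated human neural stem cells (hNSC), a commercial culture grown in serum-free medium on a coated surface. There were 2 MEIS ChIP replicates and 2 Input samples, which are chromatin without immunoprecipitation, and the ChIP combined an antibody against both proteins with one against MEIS1, so a site cannot be given to either protein. Per the methods, separate batches of the cells were taken through the ChIP side by side, although the labels do not tie a batch to a replicate. The methods also give alternative bead washes, with or without added LiCl, and do not say which replicate had which. The sequencing depth behind the peaks is unknown, and peaks do not measure expression, so neither the identity of the cells nor the activity of the genes could be checked here. No gene or site was compared between conditions and no test was made.

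RGM proteins are membrane-anchored molecules that bind the receptor neogenin, encoded by NEO1, and guide growing axons and the closure of the neural tube. They also act as co-receptors for BMPs, secreted ligands that signal through type I and type II serine/threonine kinase receptors to SMAD transcription factors. In the developing nervous system BMPs pattern the dorsal neural tube and bias neural stem cells between dividing, neuronal and glial fates, and secreted antagonists such as Noggin and Gremlin hold them back.

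The sequences at the strongest site of each gene, and at every site inside a gene body, are shown because they let the letters under each summit be read directly. The second site of BMPR1B is also shown, and was chosen after its values were seen. Each run is the GRCh37 reference, plus strand, 5′ to 3′, with 60 bases on each side of the summit (121 in all), except the 24 bases of the 3′ untranslated region (UTR). Capitals mark TGACA, the first 5 letters of the MEIS core TGACAG, or its reverse complement TGTCA, and in the UTR the whole core.
RGMA, strongest site, chr15:94034324-94034444: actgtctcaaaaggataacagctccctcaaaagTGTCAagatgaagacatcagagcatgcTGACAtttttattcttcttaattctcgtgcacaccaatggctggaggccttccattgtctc
RGMB, strongest site, chr5:97906345-97906465: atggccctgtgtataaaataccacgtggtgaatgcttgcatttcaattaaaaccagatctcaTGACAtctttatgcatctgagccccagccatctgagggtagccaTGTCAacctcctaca
BMP4, strongest site, chr14:54829050-54829170: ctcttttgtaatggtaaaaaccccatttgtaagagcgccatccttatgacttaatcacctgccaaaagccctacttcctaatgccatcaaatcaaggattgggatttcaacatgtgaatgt
BMP7, strongest site, intron 1, chr20:55836643-55836763: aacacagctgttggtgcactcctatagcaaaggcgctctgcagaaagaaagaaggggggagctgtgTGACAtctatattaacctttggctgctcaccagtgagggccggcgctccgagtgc
BMP7, weaker site, intron 1, chr20:55832970-55833090: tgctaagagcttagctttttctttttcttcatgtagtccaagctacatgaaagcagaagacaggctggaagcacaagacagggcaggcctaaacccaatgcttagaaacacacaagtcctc
BMPR1A, strongest site, chr10:88258424-88258544: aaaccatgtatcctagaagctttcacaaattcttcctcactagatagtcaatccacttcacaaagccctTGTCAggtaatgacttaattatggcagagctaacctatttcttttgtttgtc
BMPR1B, strongest site, intron 3, chr4:95965467-95965587: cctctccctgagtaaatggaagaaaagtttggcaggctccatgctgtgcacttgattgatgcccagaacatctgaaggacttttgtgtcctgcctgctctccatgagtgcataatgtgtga
BMPR1B, second site, upstream of the gene, chr4:95459516-95459636: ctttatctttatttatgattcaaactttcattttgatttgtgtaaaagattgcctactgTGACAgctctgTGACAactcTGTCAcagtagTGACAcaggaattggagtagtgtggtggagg
BMPR1B, weaker site, intron 3, chr4:95972647-95972767: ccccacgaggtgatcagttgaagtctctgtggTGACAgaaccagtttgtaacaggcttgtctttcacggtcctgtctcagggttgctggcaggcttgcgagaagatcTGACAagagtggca
BMPR1B, site in the 3′ UTR, chr4:96077567-96077590: ttgaaaattTGACAGctacatgaa
NOG, only site, chr17:54395076-54395196: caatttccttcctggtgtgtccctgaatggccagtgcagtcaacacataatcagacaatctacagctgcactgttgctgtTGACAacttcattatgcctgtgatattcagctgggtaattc
GREM1, only site, chr15:33158922-33159042: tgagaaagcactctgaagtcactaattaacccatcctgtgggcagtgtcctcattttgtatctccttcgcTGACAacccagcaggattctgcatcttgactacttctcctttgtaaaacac
The number of copies differed between sites of the same gene as well as between genes. No TGACA lay in the windows of the BMP4 site, the weaker BMP7 site or the strongest BMPR1B site, whereas the second BMPR1B site held 4 copies, of which 2 continued to TGACAG. At RGMA, RGMB and BMP7 the strongest sites carried a TGACA centred 2, 4 and 8 bp from the summit, with no TGACAG in the 500 bp around it.

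Of the 10 genes, 8 had at least 1 reproducible site within 500 kb, beside 67.8% of all protein-coding genes. NEO1 and BMP2 had none. Sites inside the gene body were found at 2 genes, BMP7 and BMPR1B, beside 8.36% of all genes of any length. Their bodies span 97.9 kb and 400 kb, and no like-length share is given for body sites. Of the 10 genes, 7 were the nearest gene of at least 1 site, beside 14.0%. RGMA was bound to be among these 7 and the 8 above, because the site it was chosen by counts toward both. The number of sites ran from 0 to 8 with a median of 2, where the median over all genes was 1. Of the 32 sites, 18 lay upstream of their gene, 9 downstream and 5 in the body, and for 19 the nearest canonical TSS belonged to a listed gene. A site lay in the extended bodies of a median of 3 protein-coding genes, so being assigned to a gene here does not say that the site acts on it.

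**Figure D1:**
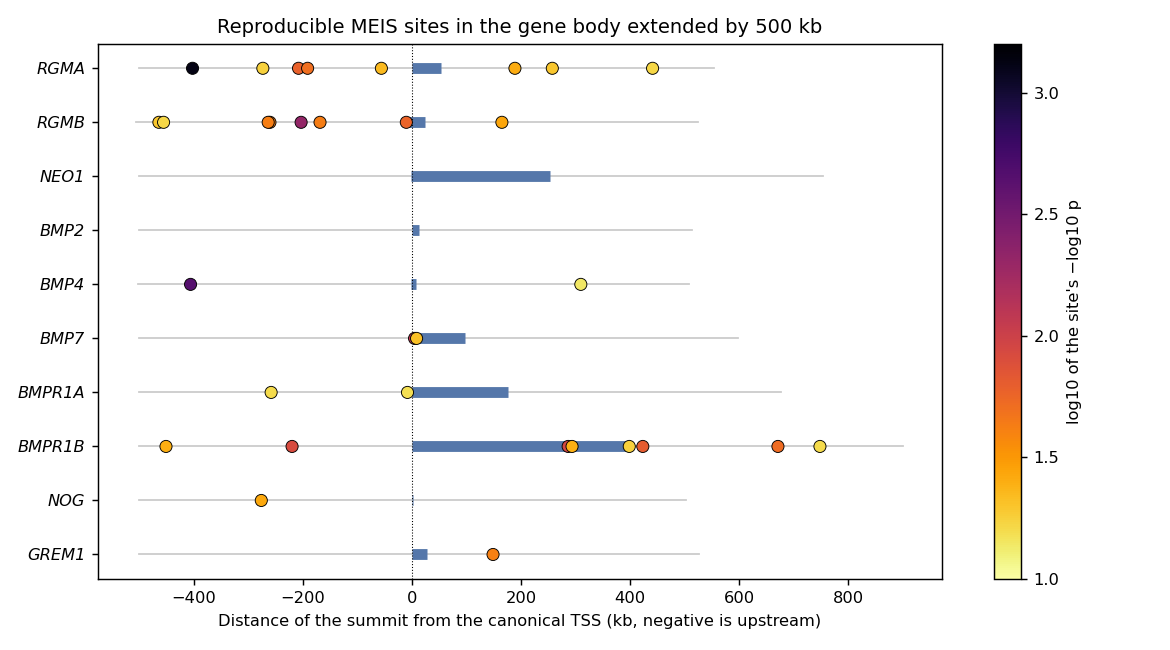
Reproducible MEIS sites at each gene. The horizontal axis is the distance of the summit from the canonical TSS in kb, negative upstream, the thick bar is the gene body, the thin line the 500 kb on each side, and colour the log10 of the site's −log10 p; RGMA, RGMB and BMPR1B hold 8 sites each, while NEO1 and BMP2 hold none.

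RGMA, RGMB and BMPR1B held 24 of the 32 sites. Each number was set beside 200 protein-coding genes of the most similar body length, since longer genes have wider windows. As many sites or more were found at 1.5% of these genes for RGMA, at none of the 200 for RGMB and at 5.5% for BMPR1B. The medians of the like-length genes were 1, 1 and 3 sites. The RGMA count includes the site by which RGMA was chosen, whereas the like-length genes were not chosen by a site. RGMB and BMPR1B were also listed with earlier results of these data known, so these shares describe the counts and test nothing. BMP4 and BMP7, with 2 sites each (1 at BMP4 without replicate 1), were matched or exceeded by 32.0% and 49.5% of their like-length genes. For BMPR1A with 2 sites, NOG with 1 and GREM1 with 1, the shares were 62.5%, 61.5% and 64.0%. Over the 10 genes the median percentile was 56.6. With bodies extended by 100 kb only, RGMA and RGMB had 1 site each and BMPR1B 4. The windows with most sites had few other genes: 2 other canonical TSS lay in that of RGMA and 1 in that of RGMB, where like-length genes had a median of 10 and 13. BMP2 had no other gene in its window and no site, and the part of gene density in these numbers was not tested.

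**Figure D2:**
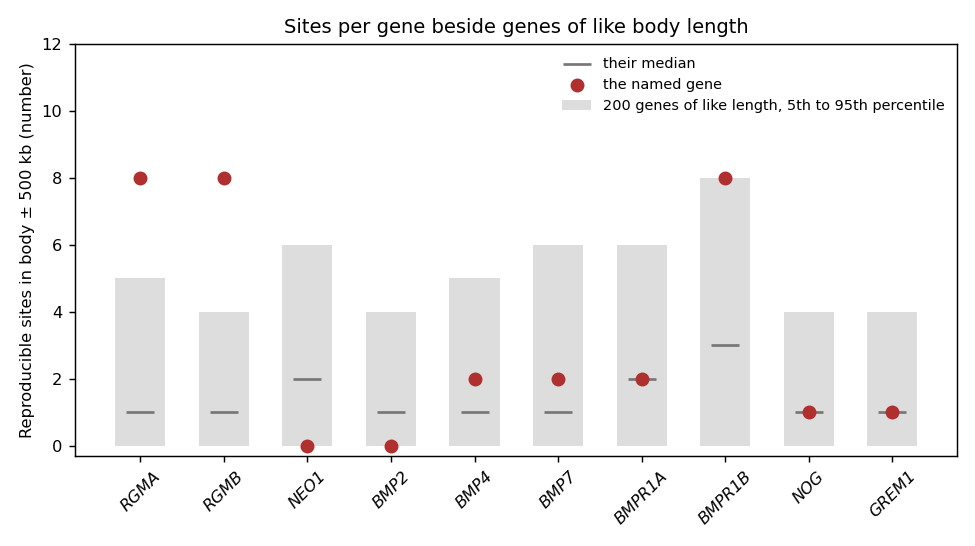
Number of reproducible sites in the gene body extended by 500 kb. Red points are the 10 genes. Grey bars span the 5th to the 95th percentile of the 200 genes of most similar body length, and grey lines mark their median. RGMA, whose count includes the site it was chosen by, and RGMB lie above the bar, and BMPR1B at its upper end.

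RGMA (ENSG00000182175, chr15:93578501-93632440, minus strand) encodes the founding member of the RGM family. Its strongest site, at chr15:94033794-94035293, lay 402 kb upstream of the TSS inside a long non-coding RNA gene, ENSG00000257060. Replicate 1 gave a −log10 p of 1318 and replicate 2 one of 1389, and the authors' fold enrichment over input was 83.4 and 161. Both replicates placed the summit on the same base. The next sites, 208 kb and 191 kb upstream in the same non-coding gene, were far weaker, with −log10 p values of 79.3 and 59.6 for one and of 50.6 and 109 for the other in replicates 1 and 2. Their order therefore changed between the replicates.

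The remaining 5 RGMA sites had −log10 p values between 16.4 and 37.1 over both replicates. The closest to the RGMA TSS lay 55.8 kb upstream, with 28.4 in replicate 1 and 22.4 in replicate 2. The site at chr15:93442851-93443925 lay 189 kb downstream of the RGMA TSS and 22 bp from the canonical TSS of CHD2, a chromatin remodeller, with 35.9 and 25.8. Another was in CHASERR, a non-coding gene beside CHD2, and one in intron 1 of FAM174B. The FAM174B site had 37.1 in replicate 1, the highest of these 5 there, and 16.4 in replicate 2, the lowest. RGMA was thus the nearest gene of 5 of its 8 sites, and no site lay in its body.

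RGMB (ENSG00000174136, chr5:98104354-98134347, plus strand) encodes a second RGM, also called DRAGON, which binds BMPs and neogenin. Its strongest site, at chr5:97905644-97907137, lay 203 kb upstream at rank 284. Replicate 1 gave a −log10 p of 209 and replicate 2 one of 318, with a fold enrichment of 20.4 and 47.5. The site nearest to the TSS, 10.1 kb upstream, had −log10 p values of 72.2 and 58.2. Of the 8 sites, 7 were upstream and had RGMB as their nearest gene. The site downstream, in the non-coding CHD1-DT beside the chromatin remodeller CHD1, had 26.9 and 30.4.

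The RGMB sites included close pairs, one 260.1 kb and 263 kb upstream with −log10 p values of 42.0 and 62.3 for the first and 43.0 and 41.9 for the second, the other 455 kb and 464 kb upstream. In that outer pair the site 455 kb away had 16.5 in replicate 1 and 45.2 in replicate 2, a wide gap, whereas its neighbour had 19.8 and 20.7. An irreproducible discovery rate (IDR) of 0.001 or less was reached by 6 of 8 RGMB sites and 4 of 8 RGMA sites, beside 60.4% of all sites.

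NEO1 (ENSG00000067141, chr15:73344051-73597546, plus strand), which encodes the receptor for both RGMs, had no reproducible site although 78.5% of its like-length genes had one. Peaks outside the list were present. The strongest, called in both replicates, lay in the gene body 123 kb downstream of the TSS with a −log10 p of 9.44 and 10.1 and a fold enrichment of 3.24 and 4.84. The weakest of all 5169 sites had a −log10 p of 12.5, so this peak fell short of every listed site.

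Among the ligands on the list of 10 genes, BMP4 (ENSG00000125378, chr14:54416454-54425479, minus strand) had the strongest site, at chr14:54828520-54829677 and rank 109. Replicate 1 gave a −log10 p of 452 and replicate 2 one of 516, with a fold enrichment of 35.2 and 66.4. It lay 406 kb upstream of BMP4 and 34.6 kb from the TSS of CDKN3, a phosphatase that acts on cyclin-dependent kinases, which was its nearest gene. The second site, 310 kb downstream, was among the weakest, with 13.9 and 19.1.

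BMP7 (ENSG00000101144, chr20:55743809-55841697, minus strand) had the only site of a listed gene within 5 kb of that gene's own canonical TSS. This site, at chr20:55835060-55838465 in intron 1, had its summit 4.99 kb downstream of the TSS. The summit lay 4986 bp from the TSS in replicate 1 and 5002 bp in replicate 2, so it met the 5 kb limit narrowly and in replicate 1 only. Replicate 1 gave a −log10 p of 118 and replicate 2 one of 121, the closest agreement of any of the strongest sites here, although the fold enrichment was 12.4 and 25.2. A weaker site in the same intron, 8.67 kb from the TSS, had 20.9 and 30.5. Both BMP7 sites therefore lay at the start of the gene, and none was found in the 500 kb on either side.

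BMP2 (ENSG00000125845, chr20:6748333-6760893, plus strand) had no site and the fewest peaks of the 10 genes, 2 in replicate 1 and 4 in replicate 2. One of them was called in both replicates, about 61.5 kb from the TSS, with a −log10 p of 4.50 and 7.66. No other protein-coding gene starts within 500 kb of BMP2.

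The type I receptors differed. BMPR1B (ENSG00000138696, chr4:95679106-96079599, plus strand) held 3 sites in its body, 2 upstream and 3 downstream. The strongest, at chr4:95964979-95966450 in intron 3, had −log10 p values of 86.5 and 129 in replicates 1 and 2. A site 220 kb upstream, in intron 3 of the cytoskeletal adaptor gene PDLIM5, was of the same strength, with 84.2 and 130.1. A second site in intron 3 of BMPR1B had 25.8 and 24.8, and its summit lay 121 bp from the TSS of an alternative BMPR1B transcript. The site in the 3′ UTR, in exon 13, had 17.6 and 17.8.

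The 3 sites downstream of BMPR1B lay in introns of UNC5C, which encodes a netrin receptor for axon repulsion. In replicates 1 and 2 their −log10 p values were 83.3 and 64.4, 51.8 and 73.8, and 18.2 and 15.8. The last of these had replicate summits 1023 bp apart, where the median over the 32 sites was 10.5 bp, so its position is less certain than that of the others. The furthest upstream site, in intron 4 of HPGDS, a prostaglandin D synthase gene, had 25.1 and 37.9. BMPR1B was the nearest gene of only 2 of its 8 sites.

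BMPR1A (ENSG00000107779, chr10:88516353-88692582, plus strand) had 2 sites, both near the weak end of the list. One, at chr10:88258143-88258832 in intron 3 of WAPL, which encodes the cohesin release factor, had −log10 p values of 15.8 and 22.7 in replicates 1 and 2. The other, 8.01 kb upstream of the TSS, had 15.4 and 18.6. Neither reached an IDR of 0.001. With as many of the strongest peaks of a single replicate in place of the list, BMPR1A had 1 site without replicate 1 and none without replicate 2, so that 7 of the 10 genes had a site in the latter case.

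The antagonists had 1 site each, both inside other genes. The NOG site (NOG, ENSG00000183691, chr17:54671060-54672972, plus strand) lay 276 kb upstream at chr17:54394687-54395475 in intron 3 of ANKFN1, with −log10 p values of 32.1 and 26.4 in replicates 1 and 2. The GREM1 site (GREM1, ENSG00000166923, chr15:33010205-33037307, plus strand) lay 149 kb downstream at chr15:33158434-33159521 in intron 16 of FMN1, a formin gene. It had 40.9 in replicate 1 and 113 in replicate 2, with a fold enrichment of 6.71 and 25.6. The ratio of replicate 2 to replicate 1, 3.82, was the highest of the 32 sites and stood at the percentile 98.2 of all sites, so the strength at GREM1 is the least certain of the strongest sites.

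Ordered by strongest site, RGMA came first, a place largely set by how it was chosen. It was followed by BMP4, RGMB, BMP7, BMPR1B, GREM1, NOG and BMPR1A. The ranges spanned by the replicates overlapped between BMP7 and BMPR1B and between BMPR1B and GREM1, and these neighbours cannot be told apart. The other neighbours had ranges that did not overlap, with only 2 replicates behind each. As a whole the 32 sites were of ordinary strength, with a median −log10 p of 26.7 where the median of all sites was 29.3. The fold enrichment was higher in replicate 2 at 32 of 32 sites, as it was at 5036 of all 5169 sites, with median ratios of 1.88 and 1.80. A neighbouring site was found within 10 kb for 8 of the 32 (25.0%, 95% Wilson interval 13.3 to 42.1), beside 11.5% of all sites, and these were the pairs at RGMB, BMP7 and BMPR1B. The interval covers the number of sites alone, and paired sites are not independent.

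**Figure D3:**
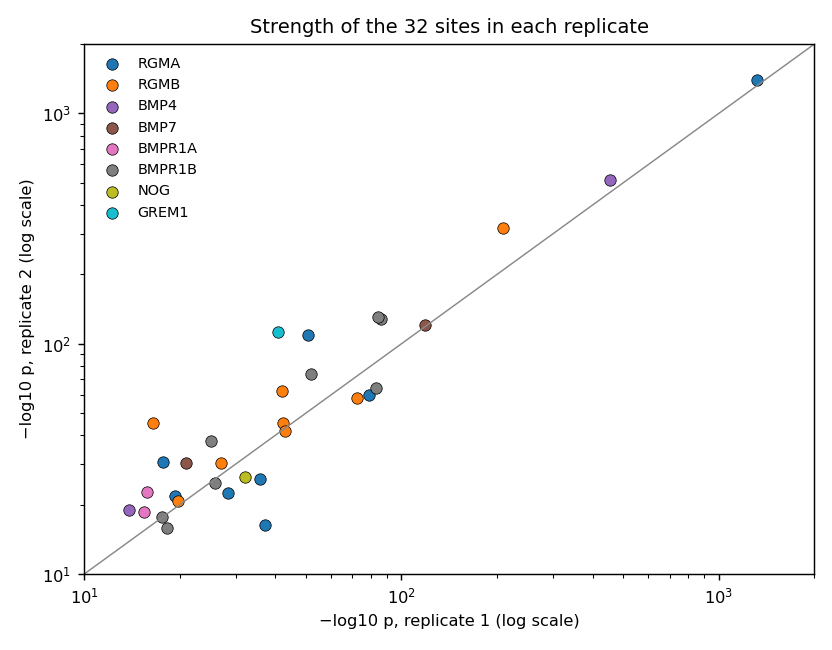
Strength of the 32 sites in both replicates. The axes give the −log10 p of the strongest overlapping peak in replicate 1 and replicate 2 on log scales, the line marks equal values and colours mark genes; RGMA, BMP4 and RGMB each have 1 site far above the rest, and the GREM1 site lies well above the line.

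The replicate lists hold many more peaks than the list of sites, since peaks were called at a p-value of 0.01. In the windows of the 10 genes, 180 peaks were called in replicate 1 and 226 in replicate 2. Of these, 101 (56.1%) and 102 (45.1%) overlapped a peak of the other replicate by at least 1 bp, beside 49.0% and 38.0% of all peaks. BMPR1B had 37 peaks in replicate 1 and 45 in replicate 2, RGMA 38 and 40, and RGMB 32 and 36. RGMB had the largest shared part, 25 of 32 peaks in replicate 1. BMP4 had 15 and 26 peaks, BMP7 17 and 24, GREM1 11 and 18, NEO1 11 and 13, and BMPR1A 8 and 15. NOG, with 9 and 5, was the only gene with fewer peaks in replicate 2.

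**Figure D4:**
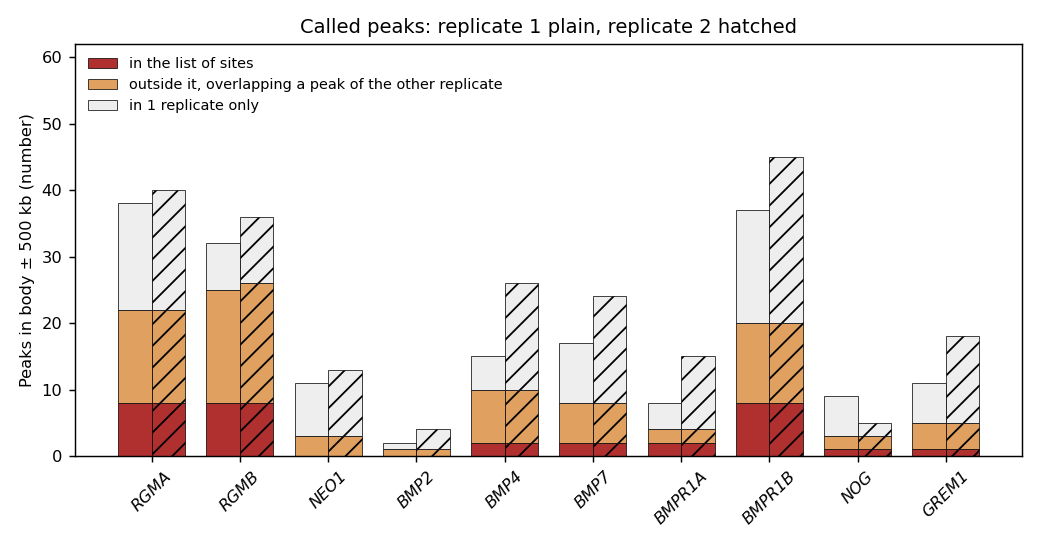
Called peaks in the gene body extended by 500 kb, replicate 1 plain and replicate 2 hatched. Red is the number in the list of reproducible sites, orange the number outside it that overlap a peak of the other replicate, and grey the number in 1 replicate only; at NEO1 and BMP2 the red part is absent, with 3 and 1 shared peaks.

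At the promoters, peaks outside the list were found for several genes. RGMB had one in both replicates, 249 bp from the canonical TSS in replicate 1 and 287 bp in replicate 2, with a −log10 p of 13.2 and 10.9. A second RGMB peak called in both, 573 bp and 554 bp from the TSS of an alternative transcript, had 5.40 and 12.5. BMPR1A had one 1721 bp and 1406 bp from the TSS, with 6.48 and 3.61. At BMPR1B a peak lay 51 bp and 13 bp from the TSS of an alternative transcript, with 9.86 and 21.0, whereas none was called within 5 kb of the canonical TSS. Within 5 kb of a TSS of their own, RGMA and NOG had such a peak in replicate 1 only, and NEO1 and GREM1 in replicate 2 only. BMP7 had peaks outside the list 474 bp and 4962 bp from the TSS, also in replicate 2 only, with 2.79 and 3.17. None was called there for BMP2 or BMP4.

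The letters of the MEIS core were searched on both strands. TGACAG was present in the 500 bp around the summit of 16 of the 32 sites (50%, 95% Wilson interval 33.6 to 66.4), beside 58.3% of all sites and 28.4% of windows of the same length 2 kb to either side of every site. All 8 BMPR1B sites held it, as did 4 of 8 RGMB sites, 2 of 8 RGMA sites, 1 of 2 BMP7 sites and the NOG site. It was not found at the sites of BMP4, BMPR1A or GREM1. The shorter TGACA, which every TGACAG contains, was within the 121 bp shown above at 23 sites (71.9%), beside 72.8% of all sites and 24.6% of the windows to the side. At 20 of 32 sites its centre lay within 20 bp of the summit, a count for which no share over all sites is given here.

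Of the 16 sites without TGACAG, 11 had a TGACA in the 121 bp, again without a share over all sites. Within 500 bp, TGACA was missing from 3 sites: the BMP4 site of rank 109 and 2 RGMA sites. The composite PBX-MEIS letters, TGACAG preceded by TGAT or TGAG, were at none of the 32 sites, beside 4.93% of all sites. With TGACA in place of TGACAG, a search added after the data were seen, they were at 1 site, assigned to RGMA, beside 8.51% of all sites. A match is a run of letters and not a measured site of contact, and its absence says only that these letters are not in the window.

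**Figure D5:**
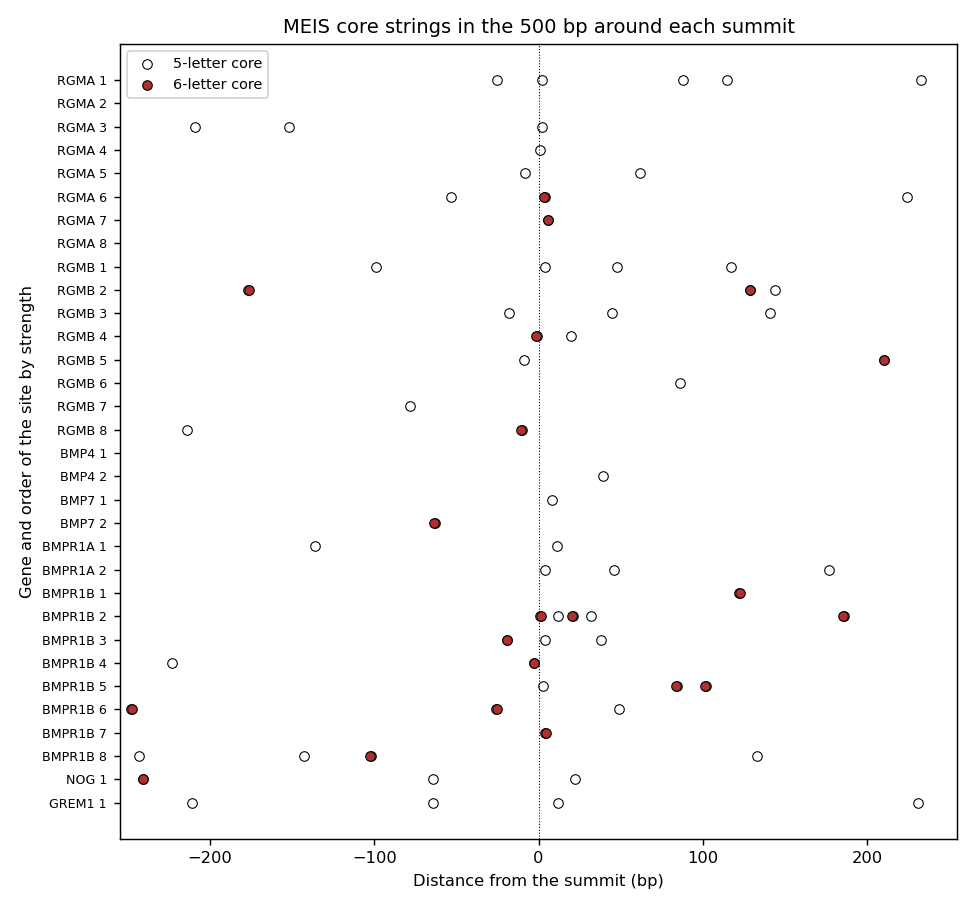
Position of the MEIS core letters in the 500 bp around each of the 32 summits. The horizontal axis is the distance from the summit in bp, each line is a site named by gene and order of strength, open circles are TGACA and filled circles TGACAG on either strand; circles gather at the summit for most RGMA and RGMB sites, and all 8 BMPR1B sites have a filled circle.

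Letters of other factors were counted in the same 500 bp. The SOX letters ACAAAG or ACAATG were at 27 sites (84.4%, 95% Wilson interval 68.2 to 93.1), beside 71.0% of all sites. The TEAD letters GGAATG were at 34.4% beside 38.2%, the FOX letters TGTTTA at 31.3% beside 34.4%, and the AP-1 letters TGANTCA at 18.8% beside 19.2%. Median GC content was 41.7% beside 42.0%. For the SMADs, which carry the BMP signal, the GC-rich letters GGCGCC were at none of the sites, beside 3.31% of all sites. The SMAD palindrome GTCTAGAC was at 1 site, that of GREM1, and at 18 of 5169 sites in all (0.348%). Its centre lay 222.5 bp from the summit, and it is shown in capitals in 41 bases of the plus strand of GRCh37.
GREM1, palindrome in the site, chr15:33159184-33159224: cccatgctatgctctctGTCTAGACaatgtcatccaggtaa

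A wider list of 42 other genes of the BMP pathway put these values in context. Of them 31 (73.8%) had at least 1 site within 500 kb, beside the 67.8% of all protein-coding genes, with a median of 2 sites and a median percentile of 62.8 among like-length genes. By role, a site was found at 8 of 10 ligands, 6 of 7 receptors, 4 of 6 SMADs, 8 of 12 antagonists or modulators, 4 of 6 target genes, and at HJV, the third RGM. Sites in the gene body were found at 2 of the 42, ACVR1 and ID4, beside 8.36% of all genes.

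The most sites were at ACVR2A, a type II receptor gene for activins and BMPs, with 6, followed by HJV and BMP8A with 5 each. The strongest ACVR2A site, 394 kb upstream of the TSS at rank 14, had −log10 p values of 1279 and 1219 in replicates 1 and 2. At HJV the strongest had 145 and 196 and lay in intron 8 of PDE4DIP. Within 5 kb of their own canonical TSS, 3 of the 42 genes had a site, and the share of all genes with one is not given here. ID4, an inhibitor of basic helix-loop-helix factors, had one in its last exon, 4.63 kb from the TSS, with 106 and 149.9. ID1, a classic BMP target of the same family, had one 0.955 kb upstream with 31.7 and 39.1. FSTL1, a secreted follistatin-like protein, had one 1.76 kb upstream with 32.1 and 32.3.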

How the data were processed

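MEIS ChIP-seq of hNSC was analysed from 2 MEIS ChIP replicates, grouped by title. The Input samples (2) entered only through peak calling. Libraries were paired reads of 36 bp. Per the submitters' processing notes and design text, adapters were trimmed (cutadapt 1.16), reads mapped to GRCh37 (Bowtie2 2.3.0), filtered at a mapping quality of 30 (SAMtools 1.2) and freed of duplicates (Picard 2.15.0). Peaks were called per replicate against input (MACS2, version not given in the sources used here) at a p-value of 0.01, and compared by IDR 2.0.3. The mapping filter removes reads in repeats, so sites there may be missing.

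Per peak, the deposited lists give fold enrichment over input, a linear ratio, and −log10 p and q. The deposited site list gives a scaled IDR score and −log10 p of each site, and the highest IDR was 0.01. Of that list, 8 columns of replicate values were not used, and replicate values come from the strongest overlapping peak of each replicate.

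Annotation was GENCODE 44 on GRCh37 with canonical TSS, read with Python 3.11.15, pandas 2.3.3 and pysam 0.24.0. All 10 genes are named, each with its strongest site; of the 42 other pathway genes, the 3 with most sites and those with a site within 5 kb of the TSS. Members and lists were chosen with earlier results of these data known. Counting and motif search were tested on simulated data. Alternatives changed the window, IDR, assignment, replicate, like-length genes, overlap, strength and motif window.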

Additional observations from a re-analysis of the deposited data

How the results depend on the processing

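With bodies extended by 100 kb, 9 sites remained assigned at 5 of the 10 genes, so most assignments rest on distances above 100 kb. At that setting 13 of the 42 other pathway genes had a site. The median percentile of the 10 genes among like-length genes was then 54.0. With 1 Mb there were 44 sites at 9 genes and the median percentile was 57.9. The share of all genes with a site is not given for these 2 windows or for the stricter IDR. At an IDR of 0.001 or less there were 19 sites at 7 genes and the median percentile was 69.6. Assignment to the nearest canonical TSS gave 20 sites. With 100 like-length genes the median percentile was 62.8. Leaving out 1 replicate gave 31 to 33 sites at 7 to 8 genes, a median percentile of 54.8 to 59.6, 32 other pathway genes and a TGACAG share of 51.6% to 54.5%; BMPR1A kept 1 site without replicate 1 and none without replicate 2, and BMP4 kept 1 without replicate 1. The share of sites with the core was 90.6% for TGACA, beside 90.9% of all sites. For TGACAG in 121 bp it was 28.1%, beside 41.0% of all sites, and both settings were chosen after seeing the data. At a −log10 p of at least 5, there were 82 peaks in replicate 1 and 123 in replicate 2, of which 87.8% of replicate 1 overlapped, and at a q of at most 0.05 replicate 1 had 109. With summits within 100 bp, 43.3% overlapped. RGMA and RGMB each kept 1 site at 100 kb. The distance of the RGMA site was 402 kb from any RGMA transcript start. The cause of these shifts was not tested beyond the narrower rule itself. No paired analysis was possible because the result comes from no test. Unknown depth limits how weak a site could be seen.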
